A study of Mus musculus with 14 samples.

Results

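The C/EBP transcription factor family was followed across the 4 groups of a bulk RNA-seq study of mouse bone marrow. Its members were taken by gene symbol: Cebpa, Cebpb, Cebpd, Cebpe, Cebpg and Ddit3, which are 6 of the 54532 rows of the count table. The rule reads the symbol and no measured value, but the family was picked for description with earlier results of these data known. The sorted cells were LT-HSC, stem cells that can rebuild blood over the long term, and GMP, the granulocyte-monocyte progenitors that give rise to neutrophils and monocytes. All mice were C57BL/6, and for all samples, controls included, the labels list poly(I:C), a double-stranded RNA mimic that induces interferon, at 5 mg/kg into the peritoneum every other day for 4 doses. In AML1-ETO mice (written AML1/ETO in the titles, genotype Runx1-Runx1t1) this activated Mx1-Cre and so switched on the t(8;21) leukaemia fusion. Mx1-Cre is driven by an interferon-responsive promoter, so it also acts in blood cells other than LT-HSC and in tissues outside the marrow. Control mice have the genotype WT, and whether they carry Mx1-Cre, the age and sex of the mice and the sort markers are not given in the labels used here. There were 3 AML1-ETO and 4 control libraries of LT-HSC and as many of GMP. Nothing in the labels ties a library to its own mouse, so a p-value here measures only the spread between libraries, which may be technical.

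C/EBP proteins are basic leucine zipper factors that bind DNA as pairs, with themselves, with each other or with ATF and AP-1 proteins. C/EBPα is required for myeloid progenitors to enter the granulocyte-monocyte path, C/EBPε for the later granule programme of neutrophils and eosinophils, and C/EBPβ for granulocyte production under stress, when it can stand in for C/EBPα. C/EBPγ lacks an activation domain, and CHOP, the product of Ddit3, is induced by the integrated stress response and by endoplasmic reticulum stress. AML1-ETO has been described to lower CEBPA expression and to bind C/EBPα protein in t(8;21) leukaemia.

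In GMP, Cebpa, Cebpb and Ddit3 were the members whose AML1-ETO and control libraries did not overlap. Their promoters are shown so that these differences can be read beside the DNA just before each start, the 250 bases upstream of the RefSeq gene start (GRCm38.p6, the mm10 assembly). The windows are chr7:35119043-35119292, chr2:167688665-167688914 and chr10:127290543-127290792, all on the + strand and written 5′ to 3′. RefSeq promoters were matched for 4 of the 6 members, these and Cebpg. Capitals mark matches, on either strand, to 4 searched motifs: the RUNX core (TGTGGT or TGCGGT), the C/EBP site (TTNNGCAA or TGNNGCAA), the short cAMP response element (TGACG) and the ATF4-C/EBP composite (TGATGNAA).
Cebpa: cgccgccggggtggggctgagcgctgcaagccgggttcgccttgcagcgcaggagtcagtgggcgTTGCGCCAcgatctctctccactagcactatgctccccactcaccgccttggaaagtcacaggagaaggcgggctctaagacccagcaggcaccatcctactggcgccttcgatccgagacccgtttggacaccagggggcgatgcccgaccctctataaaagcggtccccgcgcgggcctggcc
Cebpb: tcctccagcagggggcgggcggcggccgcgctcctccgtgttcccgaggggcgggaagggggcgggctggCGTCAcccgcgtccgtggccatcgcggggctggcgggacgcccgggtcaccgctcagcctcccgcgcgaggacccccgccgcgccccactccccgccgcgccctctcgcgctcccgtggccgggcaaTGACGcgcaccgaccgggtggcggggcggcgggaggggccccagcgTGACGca
Ddit3: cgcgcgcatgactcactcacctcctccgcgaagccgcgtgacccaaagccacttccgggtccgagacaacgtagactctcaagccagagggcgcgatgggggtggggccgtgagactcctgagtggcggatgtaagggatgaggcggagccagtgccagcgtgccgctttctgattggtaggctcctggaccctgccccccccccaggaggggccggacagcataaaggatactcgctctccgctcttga
The Cebpa window held 1 match, a C/EBP site read on the − strand at positions −185 to −178, counted back from the start. The Cebpb window held 3 matches to TGACG, the first on the − strand, which begin at positions −180, −53 and −7. The Ddit3 and Cebpg windows held no match to these letters. Over 32851 RefSeq promoters of this length, 18.6% held a RUNX core, 18.1% a C/EBP site, 17.8% the short cAMP response element and 3.45% the composite. The matches did not overlap one another. A match is a description of letters and says nothing of binding in these cells. The GC content of the windows was 66.4% for Cebpa, 81.6% for Cebpb, 64.8% for Ddit3 and 70.8% for Cebpg.

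Cebpa lies on chromosome 7 at 35119293 to 35121928 of mm10 as a single exon of 2636 bp, and Cebpg lies on the same chromosome at 35046422 to 35056573 on the other strand, with no protein-coding gene in the 62.7 kb between them. Cebpb (chromosome 2, 167688915 to 167690418) and Cebpd (chromosome 16, 15887286 to 15891031) are also single-exon genes, of 1504 and 3746 bp. Cebpe (chromosome 14, 54710360 to 54712174, − strand) has 1241 bp of exon and overlaps no other annotated exon. Ddit3 (chromosome 10, 127290774 to 127296288) has 1713 bp of exon and 2 entries in GENCODE M21 and in the table, of which the second held 0 counts in all libraries. The strand setting of the counting is not given, so reads cannot be told apart where exons overlap. The overlaps with protein-coding genes are 312 bp of Cebpb with Tmem189, 562 bp of Cebpd with Spidr and 68 bp of Ddit3 with Mars, beside the second Ddit3 entry (105 bp). Noncoding entries share 51 bp with Cebpa (Gm45091), 73 bp and 4 bp with Cebpg (Gm44836 and Gm45095) and 13 bp with Ddit3 (Gm4189). In GMP, where Cebpb and Ddit3 were called, Tmem189 had a log2 fold change of 0.28 ± 0.25 (edgeR adjusted p = 0.549) and Mars one of −0.30 ± 0.20 (adjusted p = 0.410), and neither passed the test.

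Libraries held 13210952 to 19403864 counts and 12106 to 19508 genes with a count. Genes with a count numbered 12106 to 15329 in control LT-HSC and 16427 to 18106 in AML1-ETO LT-HSC. In GMP they numbered 18747 to 19508 in control and 13473 to 14887 in AML1-ETO libraries. The genotypes thus did not overlap in either cell type, with opposite directions. The part of this difference in genes at 0 was not tested. Levels are CPM, counts scaled to library size by TMM over the 14 libraries, as mean ± SD (n = 4 control, n = 3 AML1-ETO). Fold changes are log2 ± SE, with Benjamini-Hochberg adjusted p-values from edgeR's quasi-likelihood test over all genes, and a gene was called under 0.05. As a check of the labels, Runx1t1, the ETO part of the fusion, lay at 85.6 to 164 CPM in AML1-ETO LT-HSC against 0 to 18.2 in control LT-HSC, and at 26.0 to 45.7 in AML1-ETO GMP against 1.69 to 2.74 in control GMP. In control mice all 9 LT-HSC markers were called lower in GMP than in LT-HSC (10.6% of all genes), and 8 of 9 GMP markers higher (13.9%). The same counts in AML1-ETO mice were 5 of 9 (9.15% of all genes) and 6 of 9 (12.6%). Elane, a defining GMP marker, was at 0 in all 3 AML1-ETO LT-HSC libraries. Some libraries stood apart within their group. AML1-ETO GMP replicate 1 had the highest summed neutrophil markers (3644 CPM against 598 and 684 in replicates 2 and 3) and erythroid markers (5004 CPM against 71.9 and 1628), and replicate 2 had no count of the granule genes Ltf and Ngp. Control LT-HSC carried B and plasma cell markers at 13092 to 77186 CPM, against 111 to 643 CPM in AML1-ETO LT-HSC. In bulk RNA, fewer cells of a type and less RNA per cell cannot be told apart.

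Between AML1-ETO and control, 1 of the 6 members was called in LT-HSC (Cebpe, higher) and 2 in GMP (Cebpb and Ddit3, both higher). All 6 members passed the filter on low counts in every comparison, Cebpe in LT-HSC through the AML1-ETO libraries alone. Over all genes tested, 12.3% were called in LT-HSC and 9.43% in GMP, so 1 of 6 in LT-HSC is near the background. The AML1-ETO and control libraries did not overlap for 1 member in LT-HSC and 3 in GMP (Cebpa lower, Cebpb and Ddit3 higher), beside 28.5% and 26.7% of all genes. Between the cell types the family differed more: 4 of 6 members were called in control mice (24.5% of all genes) and 3 of 6 in AML1-ETO mice (21.7%). All of these members were higher in GMP. Of all genes, 13.9% were called higher in GMP and 10.6% lower in control mice, and 12.6% and 9.15% in AML1-ETO mice. The genotype effect was called as different between the cell types for 1 member, Cebpe, whose effect was lower in GMP, beside 6.34% of all genes (2.91% lower in GMP).

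**Figure D1:**
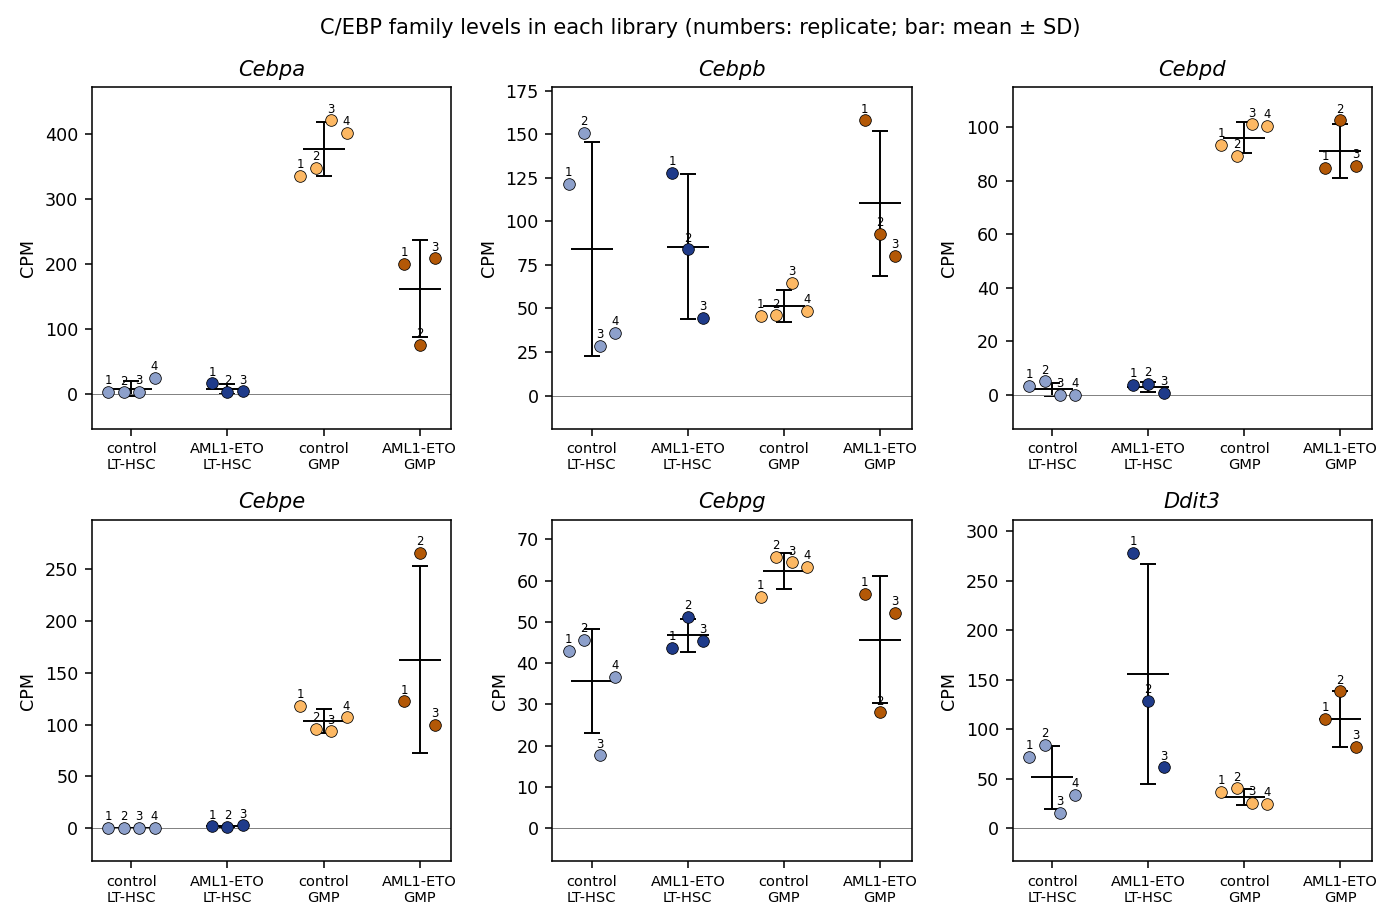
Level of each member in every library (CPM after TMM scaling, linear axes with a line at 0), one panel per gene, with points numbered by replicate and bars for the group mean ± SD (n = 4 control, n = 3 AML1-ETO). In GMP the AML1-ETO points lie below all control points for Cebpa and above them for Cebpb and Ddit3, and Cebpe is at 0 in the 4 control LT-HSC libraries.

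Cebpa, the factor of entry into the granulocyte-monocyte path, was the family's most abundant member per length of exon in control GMP and was lower in every AML1-ETO GMP library. Control GMP libraries stood at 335, 348, 421 and 402 CPM and AML1-ETO GMP libraries at 201, 75.6 and 209 CPM. The groups did not overlap, and replicate 2 of the AML1-ETO group was the lowest of the 7. The means were 377 ± 41.5 and 162 ± 74.6 CPM, so that the AML1-ETO mean was 42.9% of the control mean. The log2 fold change of −1.20 ± 0.32 missed the threshold (edgeR adjusted p = 0.0555). The side of the threshold depended on the setting, with an adjusted p between 0.00171 (DESeq2) and 0.457 (1 fit of all 14 libraries). Without AML1-ETO GMP replicate 2 the log2 fold change was −0.87, and the gene was called (adjusted p = 0.00750), as it also was without replicate 1 (0.0454) or replicate 3 (0.0475).

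In LT-HSC, Cebpa was near the bottom of its range. Control LT-HSC libraries had 2.92, 2.52, 3.47 and 24.7 CPM and AML1-ETO LT-HSC libraries 16.3, 3.38 and 4.04 CPM. Each group held a single high library, replicate 4 of the controls and replicate 1 of the AML1-ETO group, and the groups overlapped. The log2 fold change was 0.03 ± 1.07 (adjusted p = 0.994), and its sign changed with the scaling. From LT-HSC to GMP the mean of Cebpa was 44.8-fold higher in control mice (5.49 ± 0.80, adjusted p = 0.000251) and 20.4-fold higher in AML1-ETO mice (4.34 ± 0.87, adjusted p = 0.00275). The difference between these steps was −1.15 ± 1.02 (adjusted p = 0.620). Without control LT-HSC replicate 4, its one high library, the difference was −2.64 and called (adjusted p = 0.0445, the lowest over the alternatives).

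Cebpe, the factor of late granulocyte maturation, had no count in any of the 4 control LT-HSC libraries and a low level in all 3 AML1-ETO LT-HSC libraries. Those 3 held 30, 16 and 43 counts, or 1.79, 1.23 and 2.63 CPM, against a limit of 0.0486 CPM that 3 counts over the control group would give. The AML1-ETO mean of 1.88 ± 0.705 CPM was thus at least 38.8-fold higher (adjusted p = 0.0429). The limit covers counting error only, and control LT-HSC libraries also had fewer genes with a count (12106 to 15329 against 16427 to 18106). Dropping a single AML1-ETO LT-HSC library ended the call (adjusted p of 0.110, 0.147 and 0.125 without replicates 1, 2 and 3), as did dropping control LT-HSC replicate 4 (0.0571) or the filter on low counts (0.112). Over all alternatives the adjusted p ran from 0.000133 to 0.396.

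Markers of other cells also differed between the genotypes in LT-HSC. Mast cell markers summed to 9542 to 12205 CPM in AML1-ETO LT-HSC and 446 to 673 CPM in control LT-HSC. All 10 were called higher, beside 7.59% of all genes. Mcpt4 and Fcer1a were at 0 in control LT-HSC and passed the filter on low counts through the AML1-ETO libraries alone. GMP markers summed to 2111 to 2469 CPM against 676 to 1101 CPM, but the list split in direction. Of its 9 genes, 5 were called higher (Mpo, Ctsg, Cd34, Fcgr3 and Kit), Prtn3 was called lower and Elane was at 0 in the AML1-ETO libraries. Kit was itself called lower in GMP than in LT-HSC in both genotypes. Neutrophil markers went the other way, at 0.230 to 43.9 CPM against 51.8 to 170 CPM, and none of the 8 tested was called by edgeR. Within AML1-ETO LT-HSC, Cebpe was lowest in replicate 2, where mast cell and GMP markers had their highest sums (12205 and 2469 CPM). Neutrophil markers had their lowest sum there (0.230 CPM). The part of mast cells or GMP in the Cebpe counts was not tested.

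In GMP, Cebpe stood at 118, 95.7, 93.5 and 107 CPM in controls and at 122, 266 and 99.8 CPM in AML1-ETO libraries. Replicate 2, the library lowest in Cebpa, was the highest in Cebpe, and the other two lay in or just above the control range. The means were 104 ± 11.4 and 163 ± 90.0 CPM, and the log2 fold change of 0.67 ± 0.31 was not called (adjusted p = 0.235). The genotype effect on Cebpe differed between the cell types (adjusted p = 0.00285), with log2 effects of at least 5.28 in LT-HSC, by counting error, and 0.67 ± 0.31 as fitted in GMP. That call was lost under limma-voom with sample weights (adjusted p = 0.188; range 7.07e-07 to 0.188). From LT-HSC to GMP, Cebpe was at least 2132-fold higher in control mice (adjusted p = 7.75e-07) and 86.3-fold higher in AML1-ETO mice (6.41 ± 0.45, adjusted p = 8.87e-06).

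Cebpb, the factor of granulocyte production under stress, was higher in every AML1-ETO GMP library than in any control GMP library. The control values were 45.6, 46.0, 64.7 and 48.8 CPM and the AML1-ETO values 158, 92.8 and 80.0 CPM. The rise was 2.15-fold, from 51.3 ± 9.09 to 110.3 ± 41.8 CPM (log2 fold change 1.12 ± 0.25, adjusted p = 0.0295). The call was lost without any 1 control GMP library (adjusted p of 0.108, 0.0959, 0.0814 and 0.101 without replicates 1 to 4) and in 1 fit of all 14 libraries (0.278), within a range of 0.000334 to 0.278. Without AML1-ETO GMP replicate 1, the highest library, the log2 fold change was 0.76. That library was also the highest in neutrophil, erythroid, and monocyte and macrophage markers.

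In LT-HSC, Cebpb spread more within groups than between them. Control LT-HSC libraries had 122, 151, 28.5 and 36.0 CPM and AML1-ETO LT-HSC libraries 128, 83.9 and 44.5 CPM. Replicates 1 and 2 of the controls were the high ones, and the AML1-ETO values lay inside the control range (log2 fold change 0.12 ± 0.62, adjusted p = 0.945). The difference between the genotype effects was 1.08 ± 0.72 (adjusted p = 0.451), so the rise seen in GMP was not shown to be particular to GMP. Between GMP and LT-HSC, Cebpb was not called in either genotype, with log2 fold changes of −0.72 ± 0.47 in control mice (adjusted p = 0.301) and 0.37 ± 0.54 in AML1-ETO mice (adjusted p = 0.710).

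Cebpd, an acute-phase and inflammation-induced member, was called between the cell types and not between the genotypes. Control GMP libraries stood at 93.4, 89.2, 101 and 101 CPM and AML1-ETO GMP libraries at 84.9, 102.7 and 85.7 CPM. The groups overlapped and had the smallest spread of the family in GMP (log2 fold change −0.06 ± 0.11, adjusted p = 0.805). In LT-HSC the values were 3.27, 4.91, 0 and 0 CPM in controls and 3.70, 3.99 and 0.734 CPM in AML1-ETO libraries. For the 2 libraries at 0, replicates 3 and 4, a limit of 3 counts allows up to 0.197 and 0.204 CPM. The LT-HSC groups overlapped too (0.56 ± 1.94, adjusted p = 0.920). From LT-HSC to GMP, Cebpd was 47.0-fold higher in control mice (5.55 ± 0.97, adjusted p = 0.00101) and 32.4-fold higher in AML1-ETO mice (5.02 ± 1.09, adjusted p = 0.0045). Spidr, which overlaps part of the Cebpd exon, was called lower in AML1-ETO LT-HSC (−1.59 ± 0.36, adjusted p = 0.0250), and its part in the LT-HSC counts of Cebpd was not tested.

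Cebpg, the member without an activation domain, had the narrowest range across the 4 groups. Control LT-HSC libraries had 43.1, 45.6, 17.6 and 36.7 CPM and AML1-ETO LT-HSC libraries 43.7, 51.3 and 45.5 CPM. Control GMP libraries had 56.0, 65.8, 64.4 and 63.3 CPM and AML1-ETO GMP libraries 56.9, 28.1 and 52.3 CPM. Both comparisons overlapped, in LT-HSC through control replicate 2 and in GMP through AML1-ETO replicate 1. The log2 fold changes were 0.48 ± 0.34 in LT-HSC (adjusted p = 0.448) and −0.43 ± 0.23 in GMP (adjusted p = 0.316), and their difference was −0.84 ± 0.42 (adjusted p = 0.287). Cebpg was 1.75-fold higher in GMP than in LT-HSC of control mice (0.80 ± 0.28, adjusted p = 0.0483), a call lost in 12 of 14 alternatives, with an adjusted p from 0.0371 to 0.121. The library whose omission kept it was control LT-HSC replicate 2. In AML1-ETO mice the value was −0.03 ± 0.32 (adjusted p = 0.969).

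Ddit3, which encodes the stress-induced partner CHOP, had the firmest genotype difference of the family. In GMP the control values were 36.6, 40.3, 25.2 and 25.0 CPM and the AML1-ETO values 110.2, 138 and 82.0 CPM. Every AML1-ETO library exceeded every control library, and the lowest AML1-ETO value lay above the highest control value by more than the whole control range. The rise was 3.47-fold, from 31.8 ± 7.86 to 110.1 ± 28.1 CPM (log2 fold change 1.81 ± 0.24, adjusted p = 0.00844), which ranked 103rd by p of 13981 genes. It held without any 1 library, with log2 fold changes of 1.61 to 1.97 and an adjusted p of at most 0.0422, and was lost in 1 fit of all 14 libraries (0.0843; range 1.93e-10 to 0.0843).

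In LT-HSC, Ddit3 stood at 71.9, 84.2, 15.6 and 33.5 CPM in controls and at 278, 129 and 61.5 CPM in AML1-ETO libraries. AML1-ETO replicates 1 and 2 lay above all controls, and replicate 3 lay among them. The means differed 3.04-fold, close to the ratio in GMP, yet the log2 fold change of 1.71 ± 0.64 did not pass the test (adjusted p = 0.124), while DESeq2 (0.0351) and 1 fit of all 14 libraries (0.0413) called it, in a range of 0.0351 to 0.484. The genotype effects differed by 0.19 ± 0.73 between the cell types (adjusted p = 0.957). Between GMP and LT-HSC the log2 fold changes were −0.69 ± 0.48 in control mice (adjusted p = 0.333) and −0.50 ± 0.55 in AML1-ETO mice (adjusted p = 0.595). Mars, which shares 68 bp of exon with Ddit3, was called lower in AML1-ETO LT-HSC (−1.06 ± 0.26, adjusted p = 0.0339), and its part in the LT-HSC counts of Ddit3 was not tested.

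**Figure D2:**
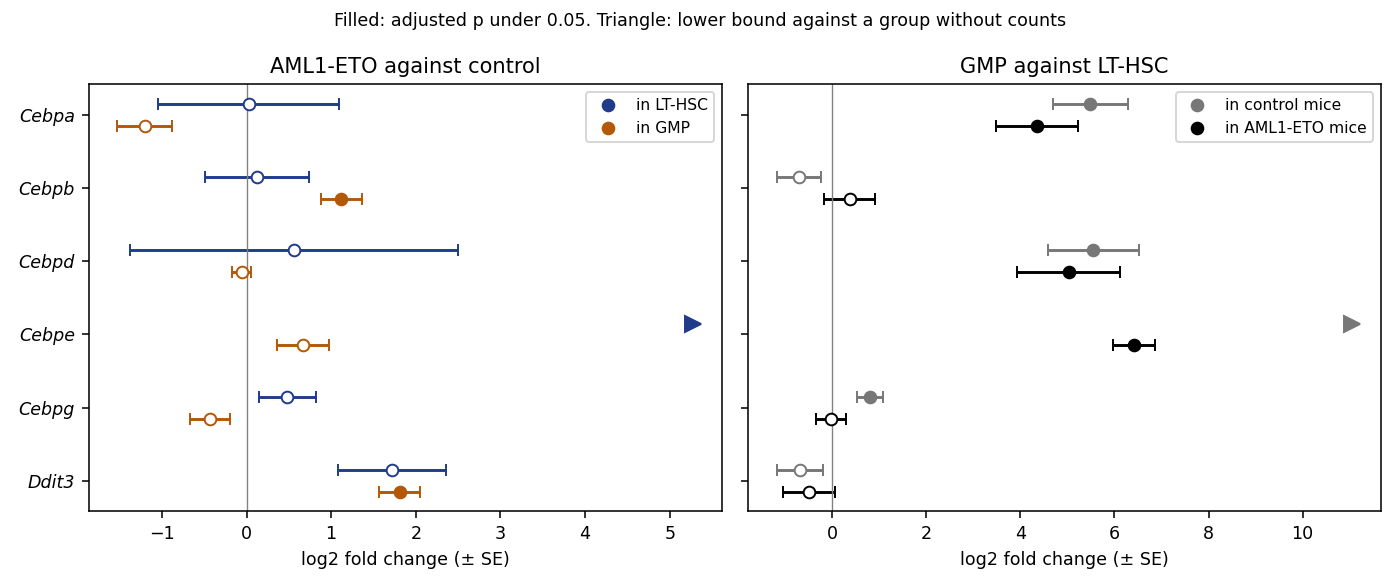
Log2 fold change ± SE of the 6 members, at left for AML1-ETO against control in LT-HSC (blue) and GMP (orange) and at right for GMP against LT-HSC in control mice (grey) and AML1-ETO mice (black). Filled symbols passed an adjusted p of 0.05, and triangles are lower bounds against a group without counts, drawn for Cebpe: the filled GMP symbols at left are Cebpb and Ddit3, and at right Cebpa, Cebpd and Cebpe are filled in both genotypes.

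Immediate early genes, which cells switch on rapidly after a stimulus, were also higher in AML1-ETO libraries. Summed over 14 immediate early genes, the level was 7354, 11880 and 12741 CPM in AML1-ETO GMP replicates 1 to 3 and 2827 to 5197 CPM in control GMP, and 12 of 14 genes rose (5.47% of all genes were called higher in GMP). In LT-HSC the sum was 54522, 41961 and 24247 CPM in AML1-ETO replicates 1 to 3 and 21892, 20924, 8789 and 12529 CPM in control replicates 1 to 4, and 7 of 14 rose (7.59% of all genes). Within control LT-HSC, the libraries high in this sum, replicates 1 and 2, were also the ones high in Cebpb and Ddit3. Within AML1-ETO LT-HSC, replicates 1, 2 and 3 had the same order in the sum, in Cebpb and in Ddit3. Within control GMP, the sum was 3970, 5197, 3648 and 2827 CPM in replicates 1 to 4, the order of Ddit3 but not of Cebpb, which was highest in replicate 3. Within AML1-ETO GMP, replicate 1 had the lowest sum and the highest Cebpb, and replicate 3 had the highest sum and the lowest Ddit3. In AML1-ETO GMP the AP-1 gene Fosb rose from 234 ± 96.6 to 1512 ± 463 CPM (2.71 ± 0.34, adjusted p = 0.00701), and Junb rose from 216 ± 63.5 to 778 ± 166 CPM (1.87 ± 0.24, adjusted p = 0.00758). Markers of other cells differed in GMP as well. Neutrophil markers summed to 598 to 3644 CPM in AML1-ETO GMP and 56.0 to 79.3 CPM in control GMP (4 of 7 tested called higher), and mast cell markers to 1737 to 2972 CPM against 555 to 688 CPM, with Mcpt4 and Tpsb2 at 0 in control GMP (7 of 9 higher). Erythroid markers summed to 71.9 to 5004 CPM against 20.1 to 37.7 CPM, with Hba-a2 and Slc4a1 at 0 in control GMP (4 of 9 higher). The called genes Tpsb2 and Hba-a2 passed the filter on low counts through the AML1-ETO libraries alone. Monocyte and macrophage markers summed to 751, 168 and 223 CPM in AML1-ETO GMP replicates 1 to 3 and 375 to 474 CPM in control GMP (2 of 7 tested called higher). The part of the early response or of these cells in the Cebpb and Ddit3 values was not tested. The count of 12 in GMP was 3, 7, 3 and 4 without control GMP replicates 1 to 4, and the count of 7 in LT-HSC was 1 without AML1-ETO LT-HSC replicate 1 or 2 and 3 without control LT-HSC replicate 4.

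Levels of the members were set side by side as CPM per kb of exon. In control GMP the order was Cebpa at 143 ± 15.7, Cebpe at 83.5 ± 9.19, Cebpb at 34.1 ± 6.05, Cebpd at 25.7 ± 1.54, Ddit3 at 18.5 ± 4.59 and Cebpg at 11.1 ± 0.774 CPM per kb, and no neighbours in that order overlapped. In AML1-ETO GMP, Cebpe came first at 131 ± 72.5, followed by Cebpb at 73.3 ± 27.8, Ddit3 at 64.3 ± 16.4 and Cebpa at 61.3 ± 28.3 CPM per kb, and each of these 4 overlapped its neighbour. Cebpd at 24.3 ± 2.68 and Cebpg at 8.14 ± 2.75 CPM per kb kept the lower end, without overlap. The control order thus set Cebpa apart from all other members, and the AML1-ETO order did not.

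LT-HSC had another order. In control LT-HSC, Cebpb at 56.0 ± 40.7 and Ddit3 at 29.9 ± 18.7 CPM per kb led and overlapped. Cebpg followed at 6.36 ± 2.25 CPM per kb, below every Ddit3 value. Cebpa at 3.19 ± 4.12, Cebpd at 0.546 ± 0.655 and Cebpe at 0 CPM per kb each overlapped the neighbour above. In AML1-ETO LT-HSC, Ddit3 at 91.1 ± 64.8 and Cebpb at 56.7 ± 27.7 CPM per kb led and overlapped, and Cebpg at 8.33 ± 0.709 CPM per kb stood apart from its neighbours on both sides. Cebpa at 3.0 ± 2.76, Cebpe at 1.52 ± 0.568 and Cebpd at 0.750 ± 0.482 CPM per kb overlapped in turn.

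**Figure D3:**
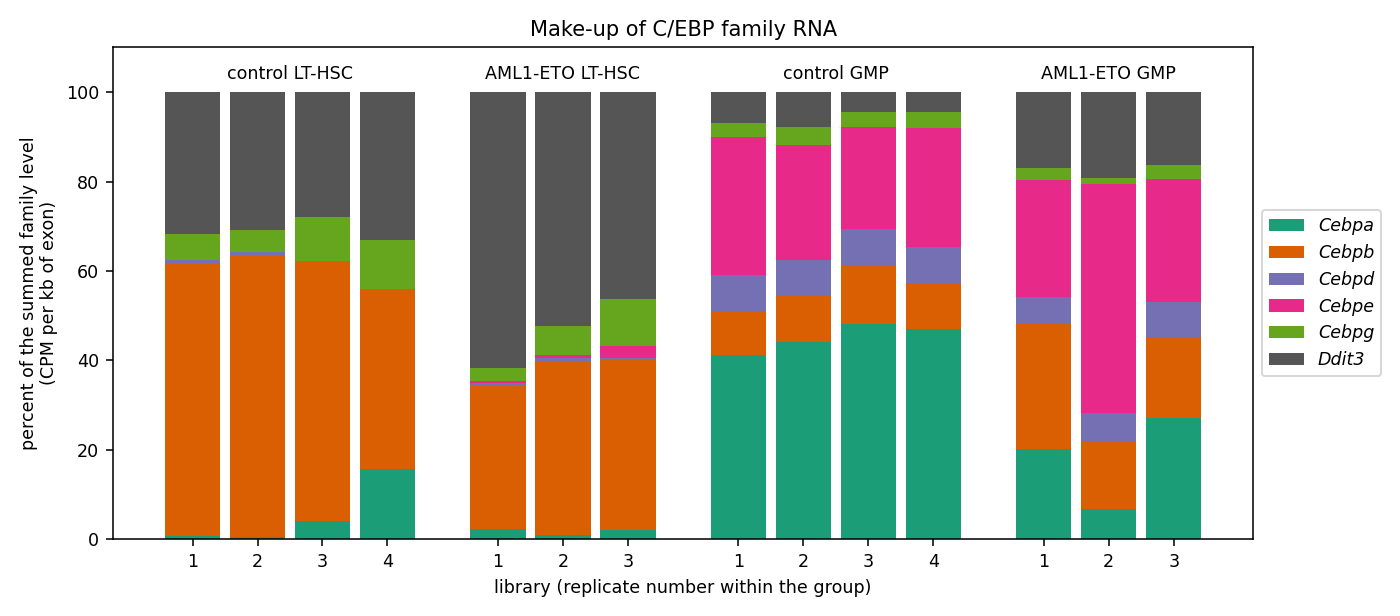
Share of each member in the family's summed level (percent of summed CPM per kb of exon) in each of the 14 libraries, stacked to 100. Cebpa takes 41.1 to 48.2% of the sum in control GMP and 6.87 to 27.0% in AML1-ETO GMP, and Ddit3 takes 46.4 to 61.6% in AML1-ETO LT-HSC against 28.0 to 33.0% in control LT-HSC.

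The summed level of the family was 316 ± 14.6 CPM per kb in control GMP and 362 ± 63.6 in AML1-ETO GMP, while its makeup differed more. Cebpa made up 41.1 to 48.2% of the sum in control GMP and 20.2%, 6.87% and 27.0% in AML1-ETO GMP replicates 1 to 3. Cebpb made up 9.81 to 13% and 14.8 to 27.9%, and Ddit3 4.44 to 7.87% and 16.4 to 19.3%, with no overlap for these 3 members. Cebpe took 22.7 to 30.8% and 26.1 to 51.3%, which overlapped. In LT-HSC the sum was 96.0 ± 59.9 CPM per kb in controls and 161 ± 94.4 in AML1-ETO libraries, with Ddit3 at 28.0 to 33.0% and 46.4 to 61.6% and Cebpb at 40.3 to 62.7% and 32.2 to 38.9%. The shares of one library add up to 100, so a higher share of one member lowers the others, and no test was made on them.

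Ratios within a library do not depend on its scaling. The length-scaled ratio of Cebpa to Cebpb was 4.19, 4.32, 3.71 and 4.70 in control GMP and 0.724, 0.465 and 1.49 in AML1-ETO GMP, so that Cebpb exceeded Cebpa in 2 of 3 AML1-ETO libraries and in none of the 4 controls. The ratio of Cebpe to Cebpa was 0.750, 0.583, 0.472 and 0.565 in control GMP and 1.30, 7.46 and 1.02 in AML1-ETO GMP. The late factor was above the early one in all 3 AML1-ETO libraries, most in replicate 2. The ratio of Ddit3 to Cebpb in LT-HSC was 0.519, 0.490, 0.481 and 0.818 in controls and 1.91, 1.35 and 1.21 in AML1-ETO libraries, and these ratios did not overlap although the levels of both genes did. The ratio of Ddit3 to Cebpg in GMP was 1.28 to 2.14 in controls and 5.15 to 16.1 in AML1-ETO libraries. These ratios were chosen with the levels known and are given as a description, with no test.

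Genes that control the family or pair with it were read next, as a list of 18 of which 17 were in the table. It holds regulators such as Runx1, Spi1 and Gfi1, partners of the AP-1 and ATF families, and the Trib genes, of which Trib1 and Trib2 direct C/EBPα for degradation. In GMP 4 of 17 rose and none fell (median log2 fold change 0.43, against −0.03 over all genes). By edgeR, 5.47% of all genes were called higher and 3.96% lower. Id1, an inhibitor of E proteins, rose from 7.003 ± 1.99 to 37.3 ± 12.4 CPM (2.43 ± 0.32, adjusted p = 0.00844). Id2 rose by 2.66 ± 0.64 (adjusted p = 0.0390), Fos by 1.17 ± 0.24 (adjusted p = 0.0250) and Jun by 1.19 ± 0.27 (adjusted p = 0.0318) on the log2 scale. Without any 1 control GMP library 1 of 17 was called, and Id1 was called in each such fit.

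In LT-HSC 4 of the 17 rose and none fell (median 0.77, against 0.03 over all genes), beside 7.59% of all genes called higher and 4.69% lower. Runx1, whose reads can come from the fusion, rose from 158 ± 24.6 to 343 ± 84.4 CPM (1.21 ± 0.22, adjusted p = 0.0108). Gfi1, a repressor that acts in granulocyte development, rose from 51.7 ± 34.3 to 362 ± 74.2 CPM (2.89 ± 0.69, adjusted p = 0.0315). Myb rose by 0.77 ± 0.17 (adjusted p = 0.0220) and Jun by 1.57 ± 0.35 (adjusted p = 0.0233). The count was 2, 0 and 1 without AML1-ETO LT-HSC replicates 1, 2 and 3 and 1 without control LT-HSC replicate 4. Spi1, which encodes PU.1, was not called between genotypes and was higher in GMP than in LT-HSC of both, at 287 ± 4.94 against 51.6 ± 18.5 CPM in control mice (2.48 ± 0.31, adjusted p = 7.74e-05). In control mice 4 of the 17 were called higher and 5 lower in GMP, beside 13.9% and 10.6% of all genes. In AML1-ETO mice 3 were called higher and 5 lower, beside 12.6% and 9.15% of all genes.

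Granulocyte-monocyte progenitor genes known as C/EBPα targets (11 genes, 5 of them also among the GMP markers) showed the cell type more than the genotype. All 11 were called higher in GMP than in LT-HSC in control mice (13.9% of all genes) and 9 of 11 in AML1-ETO mice (12.6%). Between genotypes in GMP, 1 of 11 rose and 1 fell, beside 5.47% of all genes called higher and 3.96% lower. Lyz2, which encodes lysozyme, stood at 622, 528 and 418 CPM in AML1-ETO GMP and at 120 to 148 CPM in control GMP (1.94 ± 0.15, adjusted p = 0.0013). Elane, which encodes neutrophil elastase, stood at 3630, 2758 and 3105 CPM against 4448 to 5468 CPM (−0.68 ± 0.12, adjusted p = 0.0202), and that call was lost without control GMP replicate 1, 3 or 4 (adjusted p up to 0.0823). The other 9 genes, Csf3r and Mpo among them, were not called in GMP. The count of 2 was 5 without AML1-ETO GMP replicate 1.

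In LT-HSC 4 of the 10 progenitor targets tested rose and Prtn3 fell (median 0.13, against 0.03 over all genes), beside 7.59% of all genes called higher and 4.69% lower. Csf3r, the G-CSF receptor, rose from 55.7 ± 32.1 to 465 ± 54.2 CPM (3.15 ± 0.48, adjusted p = 0.0063), a call that held without any 1 library. Mpo, which encodes myeloperoxidase, rose from 73.1 ± 46.5 to 465 ± 55.9 CPM (2.75 ± 0.47, adjusted p = 0.00913; 0.0554 without AML1-ETO LT-HSC replicate 2), and Ctsg, which encodes cathepsin G, from 7.14 ± 6.77 to 290 ± 77.0 CPM (5.42 ± 1.08, adjusted p = 0.0162; lost without any 1 AML1-ETO LT-HSC library). Cebpa itself was not called in LT-HSC. The 4 genes rose beside the mast cell markers given above for Cebpe, whose part in them was not tested. The count of 5 called was 2, 1 and 2 without AML1-ETO LT-HSC replicates 1, 2 and 3 and 3 without control LT-HSC replicate 2 or 4. The effect differed between the cell types for 6 of 11, beside 6.34% of all genes. It was higher in GMP than in LT-HSC for Lyz2 and Elane and lower for Csf3r, Csf1r, Mpo and Ctsg. Csf1r was at 0 in control LT-HSC and Elane at 0 in AML1-ETO LT-HSC, while Elane was called lower in AML1-ETO GMP. The Elane difference was lost in 8 of 14 fits that left out 1 library (edgeR adjusted p up to 0.0733).

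Late granule genes of neutrophils and eosinophils, the programme that C/EBPε serves (17 genes, 9 of them also among the 10 neutrophil markers) were higher in AML1-ETO GMP. There 8 of 15 tested rose and none fell (median 3.66, against −0.03 over all genes), beside 5.47% of all genes called higher. The 8 were Lcn2, Camp, Cd177, Chil3, S100a8, S100a9 and the eosinophil granule genes Prg2 and Epx. Cd177, a neutrophil surface protein, stood at 125, 65.2 and 69.6 CPM in AML1-ETO GMP and at 3.61 to 6.58 CPM in control GMP (3.98 ± 0.31, adjusted p = 0.0013). Lcn2, which encodes lipocalin 2, stood at 293, 244 and 95.9 CPM against 9.80 to 20.4 CPM (3.66 ± 0.40, adjusted p = 0.00555). S100a8 rose from 34.2 ± 8.21 to 332 ± 214 CPM (3.30 ± 0.40, adjusted p = 0.00694) and S100a9 from 8.48 ± 1.47 to 369 ± 431 CPM (5.46 ± 0.77, adjusted p = 0.0102). The calls of Cd177, Lcn2 and S100a8 held without any 1 library, while that of S100a9 was lost without control GMP replicate 1, 3 or 4 (adjusted p up to 0.0577).

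The late granule genes varied among the AML1-ETO GMP libraries. Cebpe stood at 122, 266 and 99.8 CPM in replicates 1 to 3, and the summed late granule level was 12270 CPM in replicate 1, 11350 in replicate 2 and 4291 in replicate 3, against 1457 to 2911 CPM in control GMP. Most of this sum did not come from neutrophil markers, which summed to 3644, 598 and 684 CPM in replicates 1 to 3. The eosinophil gene Epx alone averaged 3014 ± 1809 CPM in AML1-ETO GMP and 444 ± 184 CPM in control GMP. Ltf and Ngp, made late in neutrophil maturation, had 533 and 735 CPM in replicate 1, 77.2 and 110 CPM in replicate 3 and no count in replicate 2. The number of late granule genes called was 4, 4, 3 and 3 without control GMP replicates 1 to 4 and 13 without AML1-ETO GMP replicate 2. In LT-HSC 1 of 12 tested fell, Prg2, and none rose by edgeR (median −2.43, against 0.03 over all genes). The Prg2 call was lost without AML1-ETO LT-HSC replicate 1, 2 or 3 or control LT-HSC replicate 1, 2 or 4 (adjusted p up to 0.158), which left 0 of the list, and 12.3% of all genes were called there. Between the cell types the list was called higher in GMP for 5 of 17 in control mice (13.9% of all genes) and 15 of 17 in AML1-ETO mice (12.6%). The count of 15 was 9 without AML1-ETO LT-HSC replicate 2 or 3 or AML1-ETO GMP replicate 1. The genotype effect was higher in GMP than in LT-HSC for 9 of 17 (3.43% of all genes). That count of 9 was 3 without AML1-ETO LT-HSC replicate 2 or 3, AML1-ETO GMP replicate 1 or control GMP replicate 1, 2 or 4, and 4 or 5 without control GMP replicate 3 or AML1-ETO GMP replicate 3.

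**Figure D4:**
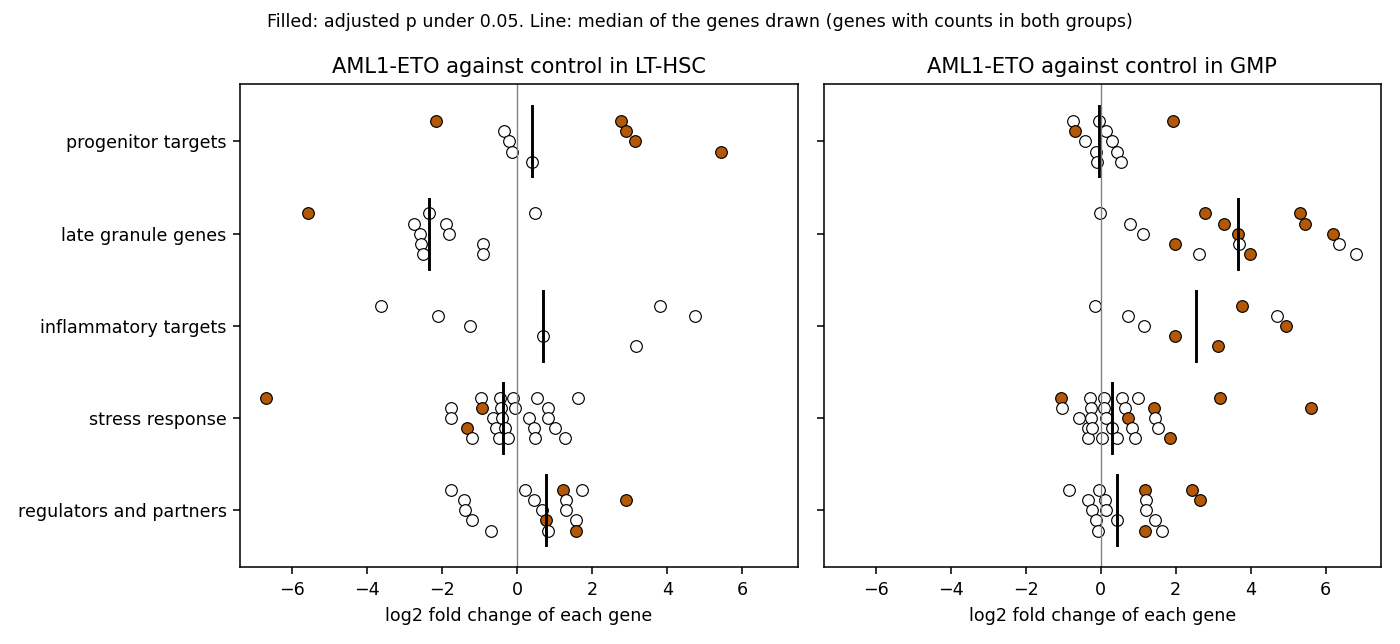
Log2 fold change of AML1-ETO against control for each gene of 5 lists (progenitor targets, late granule genes, inflammatory targets, stress response, regulators and partners) in LT-HSC and GMP, for genes with counts in both groups. Filled points were called and lines are the median of the genes drawn; in GMP the called late granule genes all lie above 0, while the stress response list has called genes on both sides.

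Inflammatory genes known as C/EBPβ and C/EBPδ targets (11 genes) were higher in AML1-ETO GMP for 4 of 8 tested and lower for none, beside 5.47% of all genes called higher. Socs3, a feedback inhibitor of cytokine signalling, stood at 28.9, 25.1 and 98.4 CPM against 0.909 to 2.57 CPM in control GMP (4.93 ± 0.59, adjusted p = 0.00682), and its call held without any 1 library. The chemokine gene Cxcl2 rose from 4.58 ± 3.40 to 62.7 ± 46.5 CPM (3.78 ± 0.77, adjusted p = 0.0258) and Tnf from 11.7 ± 5.22 to 45.5 ± 18.1 CPM (1.97 ± 0.44, adjusted p = 0.0304). Il6 was called as well, although its groups overlapped (adjusted p = 0.0482). Without any 1 control GMP library only Socs3 of the list was called. In LT-HSC 1 of 8 was called, Il6, beside 12.3% of all genes. Il6 had no count in controls, passed the filter on low counts through the AML1-ETO libraries alone and was at least 34.6-fold higher (edgeR adjusted p = 0.0436). That call was lost without any 1 AML1-ETO LT-HSC library or control LT-HSC replicate 4 (adjusted p up to 0.147).

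The stress response list (28 genes of the ATF4 and unfolded protein pathways, 27 in the table, without Ddit3) had called genes in both directions. In GMP 5 of 27 rose and 1 fell (median 0.29, against −0.03 over all genes), beside 5.47% of all genes called higher and 3.96% lower. Atf3, which like Ddit3 is an ATF4 target and is also an immediate early gene, stood at 154, 159 and 187 CPM in AML1-ETO GMP and at 10.4 to 27.5 CPM in control GMP (3.20 ± 0.29, adjusted p = 0.00287). Ppp1r15a, which encodes the GADD34 subunit that restores translation after stress, stood at 277, 257 and 356 CPM against 95.2 to 135 CPM (1.43 ± 0.16, adjusted p = 0.00554). Both calls held without any 1 library. Nupr1 rose from 0.315 ± 0.238 to 15.4 ± 13 CPM (5.60 ± 0.999, adjusted p = 0.0195), and Herpud1, of endoplasmic reticulum degradation, by 0.74 ± 0.15 (adjusted p = 0.0240). Bbc3, which encodes the cell death protein PUMA, was the fifth that rose. Phgdh, the first enzyme of serine synthesis and an ATF4 target too, fell. The count of 6 was 2, 2, 2 and 3 without control GMP replicates 1 to 4 and 10 without AML1-ETO GMP replicate 2.

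In LT-HSC none of the 26 stress genes tested rose by edgeR and 3 fell (median −0.37, against 0.03 over all genes). The share of 3 in 26 is near the 12.3% of all genes called in either direction. By direction, 7.59% of all genes were called higher and 4.69% lower. Asns, which encodes asparagine synthetase, fell from 49.8 ± 20.2 to 0.439 ± 0.428 CPM (−6.71 ± 0.96, adjusted p = 0.00501), and that call held without any 1 library. Phgdh fell from 177 ± 49.6 to 65.0 ± 19.9 CPM (−1.34 ± 0.30, adjusted p = 0.0252) and Aars, an aminoacyl-tRNA synthetase gene, from 111 ± 28.2 to 54.0 ± 2.04 CPM (−0.94 ± 0.23, adjusted p = 0.0331). The last 2 calls were lost without any 1 AML1-ETO LT-HSC library or control LT-HSC replicate 4, which left 1 call. The effect on Asns differed between the cell types by 6.22 ± 0.91 (adjusted p = 0.00213), where Asns in GMP stood at 11.7 ± 0.533 CPM in AML1-ETO mice and was not called. Asns, Phgdh and Aars were lower in AML1-ETO libraries in each comparison of genotypes that called them.

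Lipid and adipocyte genes, the classic targets of C/EBPα and C/EBPβ in fat cells, were a short list of 9. In GMP 2 of 5 tested rose: Plin2, which coats lipid droplets, from 78.8 ± 8.47 to 147 ± 36.2 CPM (0.92 ± 0.17, adjusted p = 0.0216), and Scd1, a fatty acid desaturase, from 2.11 ± 1.95 to 25.9 ± 24.5 CPM (3.62 ± 0.91, adjusted p = 0.0443). Neither call held without any 1 control GMP library, and 7 were called without AML1-ETO GMP replicate 2. The share of all genes called higher in GMP was 5.47%. In LT-HSC none of 5 was called by edgeR, beside 12.3% of all genes.

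For each member the 3 genes whose log2 CPM followed it most closely over the 14 libraries were found among 13607 genes averaging at least 20 counts. All 14 points share their library's depth and scaling and fall mostly by cell type, so the Pearson coefficients are descriptions. Cebpa was nearest to Mmp19, Csgalnact2 and Mfsd13a (0.96 each), Cebpd to Pmaip1 (0.98), Gstm1 and Lamtor4 (0.97 each), and Cebpe to Mpo, Ttc21a (0.99 each) and Csf1r (0.98). Cebpb was nearest to Nfe2l2, Mag (0.89 each) and Mindy1 (0.86), Cebpg to Pou2f2 (0.92), Gspt2 (0.91) and Amot (0.90), and Ddit3 to Herpud2 (0.95), Klf6 (0.94) and Dpm1 (0.92). Within the family, Cebpa, Cebpd and Cebpe followed one another (0.79 to 0.90), Cebpb followed Ddit3 (0.79), and Cebpa had coefficients of −0.14 with Cebpb and −0.23 with Ddit3.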

How the data were processed

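RNA-seq of 14 mouse bone marrow samples was read from 1 table of raw counts per gene that the authors deposited: whole numbers, not normalised. The submitters' processing notes name HISAT2 2.0.5, featureCounts 1.5.0-p3 and mm10 without roles. The labels' protocols name RNeasy Plus Micro extraction and the SMART-Seq v4 and SMARTer Stranded kits. Strand setting: not given in the sources used here, and likewise the annotation release. All columns matched a sample. Totals ran from 13210952 to 19403864 counts. Replicate libraries differed beyond counting noise (chi-square per gene 9.20 to 216).

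The test was that of edgeR 4.0.16 in R 4.3.3 (filterByExpr, TMM, quasi-likelihood F test, two-sided, Benjamini-Hochberg adjustment over all genes, called under 0.05) and, as alternatives, DESeq2 1.42.0 and limma 3.58.1, and in Python 3.11.15 with numpy 2.4.6 and pandas 2.3.3. Genotypes were compared within a cell type on its 7 libraries (14589 genes tested in LT-HSC, 13981 in GMP, 5 residual degrees of freedom). The cell types, and the difference between the genotype effects, came from 1 fit of 14 libraries and 4 groups (16116 genes, 10 residual degrees of freedom), so the comparisons share libraries. The SE is the log2 fold change over the square root of F. CPM used TMM sizes of the 14-library fit, and levels between genes were divided by the exon length of GENCODE M21. A group without counts was set at 3 counts over the group. The scripts were tested on simulated data. Alternatives were other scaling, DESeq2, no filter, a replicate block, another set of libraries in the fit, limma-voom and leaving out each library.

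The members were taken by symbol, and the members and lists were chosen with earlier results of these data known. The text may name the 6 members, Runx1 and Runx1t1, every called gene of a list with values for up to 4 by smallest adjusted p, and the 3 genes that followed each member most closely. Genes named with values outside that rule, such as those overlapping a member, Ltf and Ngp, were chosen after their values were seen. Listed symbols absent from the table (Rfwd2, Ero1a) were left out, the second of them being present under its older symbol Ero1l.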

Additional observations from a re-analysis of the deposited data

Results flagged for a closer look

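In control LT-HSC, Cebpa had 1 library far above the other 3: replicate 4 at 24.7 CPM, with the others at 2.52 to 3.47 CPM, so that the gap to the next library was 0.957 of the whole range of the group. In control GMP, Cebpb had 1 library above the other 3: replicate 3 at 64.7 CPM, with the others at 45.6 to 48.8 CPM and a gap of 0.830 of the range, just past the limit for 4 libraries. Such a gap was looked for in 12 groups of 4 libraries, and chance gives one in about 1 in 20 groups. Cebpe was the member whose genotype effect differed between the cell types (edgeR adjusted p = 0.00285): it was at 0 in 4 of 4 control LT-HSC libraries and above 0 in 3 of 3 AML1-ETO LT-HSC libraries, while in GMP the genotypes overlapped.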

How the results depend on the processing

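Over the 30 values of the 6 members, 379 of 431 alternative values kept the direction and the side of the threshold, 26 lost a call, 8 gained one and 18 changed sign. The sign of Cebpa in LT-HSC changed with DESeq2's size factors (−0.041), upper-quartile factors (−0.12) and 1 fit of 14 libraries (−0.074), and that of Cebpb in LT-HSC with upper-quartile factors (−0.026). With a library left out the log2 fold changes were −1.09 to 1.52 for Cebpa and −0.30 to 0.53 for Cebpb in LT-HSC, −0.20 to 0.88 for the Ddit3 difference, and −0.21 to 0.23 for Cebpg and −0.87 to 0.20 for Ddit3 between cell types in AML1-ETO mice. Genes called in LT-HSC (1791) were 2801 with DESeq2, 3166 in 1 fit of 14 libraries and 334 to 2376 with a library left out, and members called (1) were 2, 2 and 0 to 1, or 0 with no filter. Genes called in GMP (1319) were 2309 with DESeq2, 816 with no filter, 458 in 1 fit of 14 libraries and 131 to 3514 with a library left out, and members called (2) were 0 in the 14-library fit and 1 to 3 with a library left out. Genes called for the difference (1021) were 1781 with DESeq2 and 471 to 1477 with a library left out, and members called (1) were 0 under limma-voom and 1 to 2. Between cell types a library left out gave 2660 to 4584 genes and 3 to 4 members in control mice, and 2092 to 3298 genes and 3 members in AML1-ETO mice. The cause of these changes was not tested. In LT-HSC upper-quartile factors moved the split of higher against lower calls from 1107 and 684 to 912 and 853, with the median of all genes at −0.10 in place of 0.03. In control mice DESeq2's size factors moved the split between cell types from 2247 and 1702 to 1698 and 2087, with the median at −0.12 in place of 0.02.

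The replicate numbers of the labels were not used to pair the samples in the main fits. Correlations of same-numbered libraries ran from −0.0765 to 0.161. For AML1-ETO LT-HSC with AML1-ETO GMP they were 0.091, 0.161 and 0.109. The range cannot decide pairing, since it also covers groups of different genotype. As a hint from the data, 3 of 3 AML1-ETO LT-HSC libraries correlated best with the AML1-ETO GMP library of their own number. The same 3 of 3 also matched by number with control GMP, which comes from mice of another genotype. The match by number thus does not single out shared mice, and its source was not tested. With the replicate block the genes called were 525 in LT-HSC, 112 in GMP and 568 for the difference, and the members called were 0 in LT-HSC and 1 in GMP, where Ddit3 was called and Cebpb was not (adjusted p = 0.229). Depth limits Cebpe and Cebpd in LT-HSC, where the AML1-ETO libraries held at most 43 counts of Cebpe and a control library without a count of Cebpd still allows up to 0.204 CPM.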

Other observations

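Other genes of the lists that were not described above differed between the cell types. Irf8, a factor of the monocyte branch, was higher in GMP than in LT-HSC in control mice (452 ± 49.8 against 35.3 ± 29.5 CPM; 3.68 ± 0.70, edgeR adjusted p = 0.00175) and in AML1-ETO mice (248 ± 244 against 12.3 ± 2.87 CPM; 4.34 ± 0.83, adjusted p = 0.00205). Trib2, whose product directs C/EBPα for degradation, was lower in control GMP than in control LT-HSC (1.43 ± 1.17 against 56.1 ± 23.4 CPM; −5.28 ± 0.85, adjusted p = 0.000569). Trib1, of the same family, was called higher in AML1-ETO GMP than in AML1-ETO LT-HSC (188 ± 121 against 19.4 ± 19.5 CPM; 3.27 ± 0.64, adjusted p = 0.00238). The endoplasmic reticulum chaperone gene Hyou1 was higher in GMP of both genotypes, by 1.68 ± 0.21 in control mice (adjusted p = 7.61e-05) and 1.63 ± 0.24 in AML1-ETO mice (adjusted p = 0.000306), as was Dnajc3, by 1.09 ± 0.15 (adjusted p = 0.000173) and 1.16 ± 0.17 (adjusted p = 0.000334). Ppp1r15a was lower in GMP of both genotypes, by −2.32 ± 0.31 (adjusted p = 0.00013) and −2.07 ± 0.35 (adjusted p = 0.000902). Of the immediate early genes, 10 of 14 were called lower in GMP of control mice (10.6% of all genes). In AML1-ETO mice 11 of 14 were called lower (9.15% of all genes) and 1, Ier3, higher. The effect of genotype differed between the cell types for Myb (−1.03 ± 0.24, adjusted p = 0.0200) and Runx1 (−1.03 ± 0.25, adjusted p = 0.0265), both with the larger fitted change in LT-HSC. The Myb call was lost without AML1-ETO LT-HSC replicate 2 or AML1-ETO GMP replicate 1 or 3 (adjusted p up to 0.0614), and the Runx1 call without AML1-ETO LT-HSC replicate 2, AML1-ETO GMP replicate 3 or control GMP replicate 2, 3 or 4 (up to 0.0870).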
